A study of Mus musculus with 6 samples.

Results

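The N6-methyladenosine (m6A) machinery, as 10 genes, was followed in mouse hearts with and without transcription of *Trdn-as*, a non-coding RNA made from the strand opposite to the triadin gene *Trdn*. They were chosen by gene symbol and comprise 6 writer subunits (*Mettl3*, *Mettl14*, *Wtap*, *Virma*, *Zc3h13* and *Rbm15*), 2 erasers (*Fto* and *Alkbh5*) and 2 readers (*Ythdc1* and *Ythdf2*). All 10 were found among the 21776 genes of the table, and all 10 were among the 13753 genes with a mean of at least 10 that entered the test. The table holds normalised read counts from strand-specific total RNA sequencing of 3 *Trdn-as* KO hearts (genotype trdn-as KO) and 3 WT hearts, described as adult, with no age or sex given for these animals and no treatment. In the KO mice, Cas9 editing of embryonic stem cells placed a polyadenylation signal in the first exon of *Trdn-as*, chimeras were backcrossed to C57BL/6, and homozygous KO animals were derived from that breeding. The insertion is therefore carried by every cell type of the heart, although the series describes the loss as one in cardiomyocytes. *Mettl3* was not targeted in any of these animals.

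m6A is a methyl mark on adenosines inside RNA, placed in the nucleus while the RNA is being made. METTL3 transfers the methyl group, METTL14 is its structural partner that holds the RNA, and WTAP, VIRMA, ZC3H13 and RBM15 anchor the pair in the nucleus and guide it to its substrates. FTO and ALKBH5 are oxygenases that remove the mark, and proteins with a YTH domain bind it, YTHDC1 in the nucleus, where it acts on splicing and export, and YTHDF2 in the cytoplasm, where it brings the RNA to decay. VIRMA in particular links methylation to the 3′ end of messages and to the choice of polyadenylation sites. Since the study connects METTL3 with where *Trdn* transcripts end, the question here was whether the RNA of the machinery itself differed between KO and WT hearts.

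The core pair of the writer differs in its catalytic motif, which is shown because *Mettl3* and *Mettl14* were the 2 members with the lowest KO to WT ratios and because only one of them transfers the methyl group. The windows of 30 bases were read from GENCODE M21 transcripts (GRCm38), and capitals mark the 4 codons of the motif, Asp-Pro-Pro-Trp in METTL3 and Glu-Pro-Pro-Leu in METTL14. The first window lies in exon 6 of 11 at chr14:52297572-52297601 and the second in exon 7 of 11 at chr3:123374796-123374825, both in coding sequence on the minus strand.
Mettl3: gtgatggctGACCCACCTTGGgatattcac
Mettl14: attctcctgGAGCCCCCTCTGgaagaatac
Of the 12 motif bases 8 were identical, and of the 30 bases of the window 14. Each motif occurred 1 time in its coding sequence.

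Libraries and genotype were checked first. The deposited values summed to between 3.13 and 3.25 M per library, which corresponds to an estimated 2.59 to 3.62 M counted reads. *Trdn-as* had normalised read counts of 690, 773 and 688 in WT and of 1, 0 and 1 in KO hearts, and *Trdn* had 1541, 1541 and 1516 in WT and 2489, 2381 and 2551 in KO hearts. With a two-sided limma test and Benjamini-Hochberg adjustment, 4 of all genes tested had an adjusted p under 0.05, which is 0.0291% of them.

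None of the 10 members passed that threshold, the smallest adjusted p being 0.892 (limma). The unadjusted p was under 0.05 for 0 of 10 members, against 5.74% of all genes tested, and limma-voom likewise called 0. With the KO over WT direction, 6 members had a fitted log2 fold change above 0 and 4 below, with a median of 0.011 (all genes tested 0.0016) and a range from -0.18 to 0.10. The signs were the same under each of the 3 other scalings, but 3 were above 0 and 7 below when KO replicate 1 was left out. Separation of all KO from all WT hearts was seen for 1 member, *Rbm15*, against 9.07% of all genes tested. Since whole hearts were sequenced, fewer cells of a type and less RNA per cell cannot be told apart in any of these values.

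**Figure D1:**
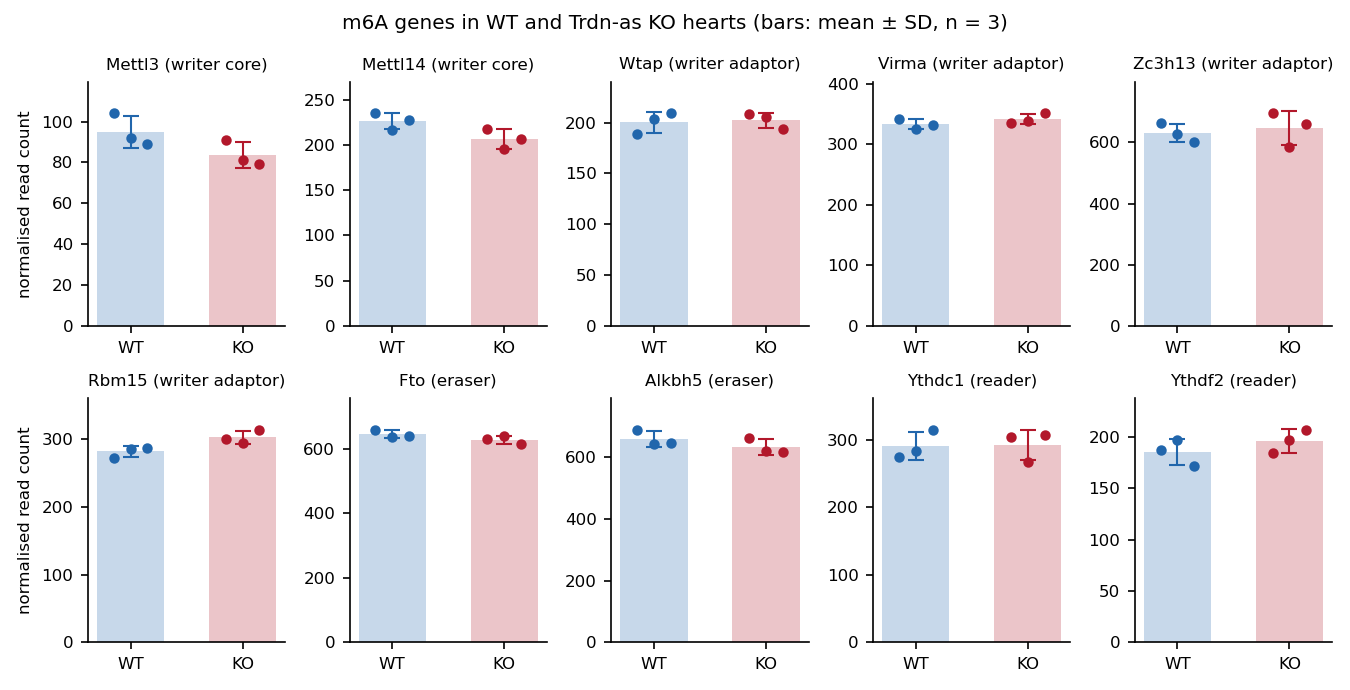
Normalised read counts (y axis, from 0) of the 10 members in 3 WT (blue) and 3 KO (red) hearts, with each heart as a point and bars for the mean ± SD. The groups overlap in 9 panels, and in the *Rbm15* panel the 3 KO hearts (294 to 313) lie above the 3 WT hearts (272 to 287).

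*Mettl3*, the catalytic subunit (ENSMUSG00000022160, chromosome 14 from 52294841 to 52305128, minus strand), had the fewest reads of the members. The KO hearts had 91, 81 and 79 normalised reads (mean 83.7 ± 6.43, SD, n = 3) and the WT hearts 104, 92 and 89 (mean 95 ± 7.94, SD, n = 3). WT replicate 1 was the highest heart and KO replicates 2 and 3 were the lowest, yet KO replicate 1 lay above WT replicate 3, so the groups overlapped. The KO to WT ratio of means was 0.881 and the log2 fold change -0.18 (SE 0.13), with an unadjusted p of 0.165 and an adjusted p of 0.899 (limma). In fold terms the 95% interval of the fitted change ran from 0.736 to 1.06.

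*Mettl14*, the structural partner (ENSMUSG00000028114, chromosome 3 from 123368297 to 123386108, minus strand), was measured at 218, 196 and 207 normalised reads in KO and at 235, 217 and 228 in WT hearts. The means were 207 ± 11 and 227 ± 9.07 (SD, n = 3 each). The groups overlapped by a single read between KO replicate 1 and WT replicate 2. The log2 fold change was -0.13 (SE 0.08), with an unadjusted p of 0.134, the smallest of the 10 members, an adjusted p of 0.892 (limma) and a fold interval of 0.809 to 1.03. The KO to WT ratios of the core pair were thus 0.881 and 0.913. In both genes the difference of means was larger than the SD of either group, and neither passed the test. Both stayed below 0 in all 15 alternatives, and in none of them did either reach an unadjusted p under 0.05.

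*Wtap*, which keeps the core in nuclear speckles, was close to equal in both genotypes, with 208, 205 and 194 normalised reads in KO and 189, 203 and 209 in WT hearts. The lowest and the highest heart were both WT. *Virma*, the largest scaffold of the complex, had 335, 338 and 351 in KO and 342, 326 and 331 in WT hearts, so that all 6 values lay between 326 and 351. The fitted log2 fold change was 0.036 (SE 0.070, unadjusted p 0.617, limma). *Zc3h13*, the zinc finger protein that retains the complex in the nucleus, had 695, 586 and 661 in KO and 663, 629 and 603 in WT hearts. Here both the highest and the lowest heart were KO, and the SD of 55.8 in KO was larger than the difference of means of 15.7.

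*Rbm15*, an RNA-binding adaptor that directs the writer to its targets (ENSMUSG00000048109, chromosome 3 from 107325421 to 107333673, minus strand), was the exception in its separation. Its values were 299, 294 and 313 normalised reads in KO and 272, 285 and 287 in WT hearts, with means of 302 ± 9.85 and 281 ± 8.14 (SD, n = 3 each). Every KO heart thus lay above every WT heart. The ratio was 1.07 and the log2 fold change 0.10 (SE 0.07), with an unadjusted p of 0.184 and an adjusted p of 0.905 (limma). Non-overlap with higher values in KO was found for 4.64% of all genes tested, so 1 member in 10 is not far from that background.

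Among the erasers, *Alkbh5* stood at 662, 619 and 618 normalised reads in KO and at 689, 642 and 647 in WT hearts. KO replicate 1 lay between the WT hearts, whereas the other 2 KO hearts were the lowest of all. The log2 fold change was -0.059 (SE 0.062, unadjusted p 0.354, limma), with a fold interval of 0.878 to 1.05. *Fto*, which also acts on the related mark next to the cap, had 631, 638 and 614 in KO and 658, 635 and 639 in WT hearts. It differed by -0.037 on the log2 scale (SE 0.059, unadjusted p 0.540, limma). Its KO and WT values overlapped only through KO replicate 2 and WT replicate 2. Both erasers stayed below 0 in all 15 alternatives.

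The nuclear reader *Ythdc1* had 305, 267 and 307 normalised reads in KO and 275, 284 and 315 in WT hearts, with the groups mixed. The fitted difference was 0.0077 on the log2 scale (SE 0.082, unadjusted p 0.926, limma). Its sign turned in 4 of 6 fits with 1 library omitted. *Ythdf2*, the reader of decay, had 184, 197 and 207 in KO and 187, 197 and 172 in WT hearts. KO replicate 2 and WT replicate 2 shared the same value. The reader's log2 fold change was 0.081 (SE 0.091, unadjusted p 0.383, limma), with a fold interval of 0.928 to 1.21. This change was 0.13 without WT replicate 2 and 0.028 without WT replicate 3.

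**Figure D2:**
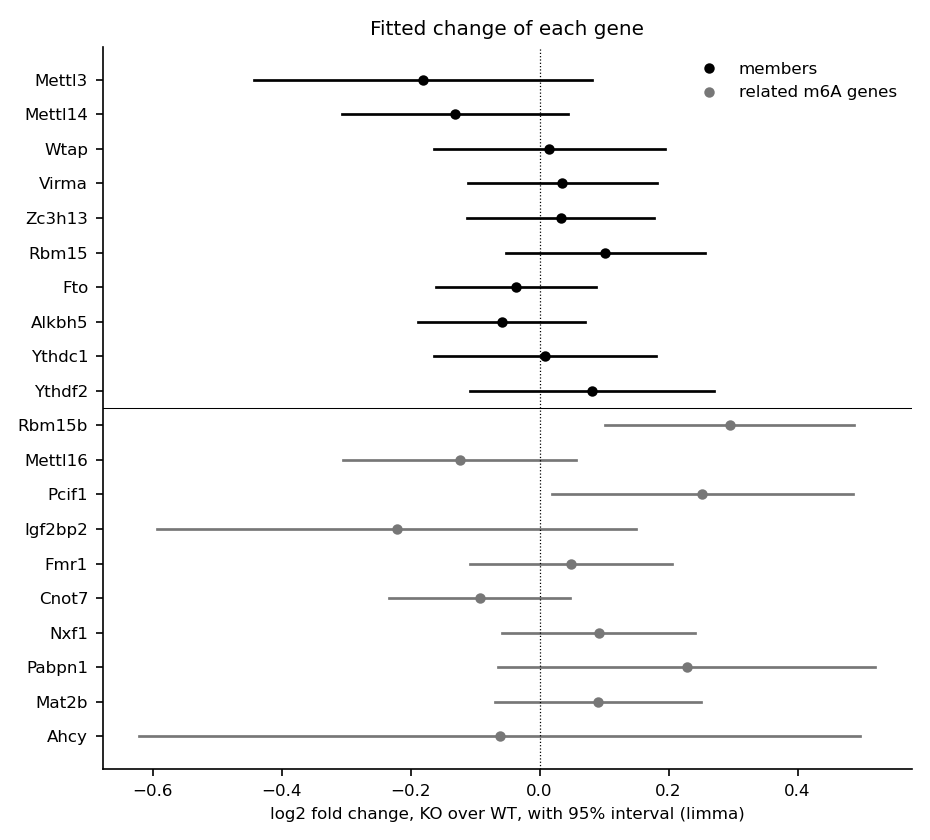
Fitted log2 fold change, KO over WT, with its 95% interval (x axis) for the 10 members (black) and 10 related m6A genes (grey). The interval of every member includes 0, and *Rbm15b* and *Pcif1* are the 2 related genes whose interval does not.

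Read together, the intervals set bounds on what these hearts allow. Over the 10 members the lowest bound was 0.736-fold, for *Mettl3*, and the highest was 1.21-fold, for *Ythdf2*, each interval taken alone. For *Fto* and *Alkbh5* the bounds were narrowest, at 0.894 to 1.06 and 0.878 to 1.05. The members' median SE was 0.078, against 0.093 for the 6442 genes tested whose mean lay between the lowest and the highest member. Their median absolute log2 fold change was 0.048, against 0.064 for those genes. Summed over the 10 members, the hearts had 3421 to 3628 normalised reads in KO and 3510 to 3614 in WT, and the KO range enclosed the WT range. WT replicate 1 was highest for 4 of the members and lowest for 2, KO replicate 3 was highest for 3 and lowest for 3, and KO replicate 2 was lowest for 3.

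**Figure D3:**
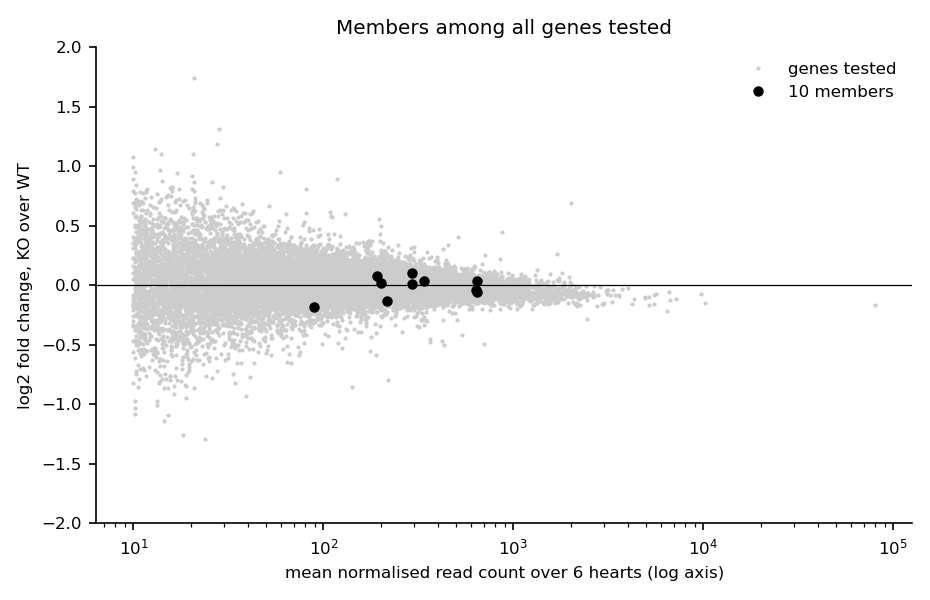
Log2 fold change, KO over WT (y axis), against the mean normalised read count over 6 hearts (x axis, log scale) for the genes tested with changes within 2 on the log2 scale (grey) and the 10 members (black). The members lie between -0.18 and 0.10, in the range of means from 89.3 to 646.

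The depth behind these values differed between members. Estimated read numbers ran from 79.4 to 105 per library for *Mettl3* and from 548 to 761 for *Alkbh5*. The counting error alone, computed from these reads, was 10.6% of the mean for *Mettl3*, while the spread between hearts of the same genotype was 8.09%. For *Virma* the counting error was 5.46% and the spread 2.48%, and for *Fto* 3.98% and 1.94%. The variance between hearts was below the counting variance for 8 of 10 members. *Zc3h13* had the largest excess, with a variance of 3.12 times the counting variance, followed by *Ythdc1* with 1.62 times. For the 6442 genes of like level the median was 1.13 times, and the share of them below the counting variance was not computed. The reads carry no molecular identifiers, and duplicates had been dropped before counting. What that step did to these variances was not tested, and these figures cover counting error only.

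**Figure D4:**
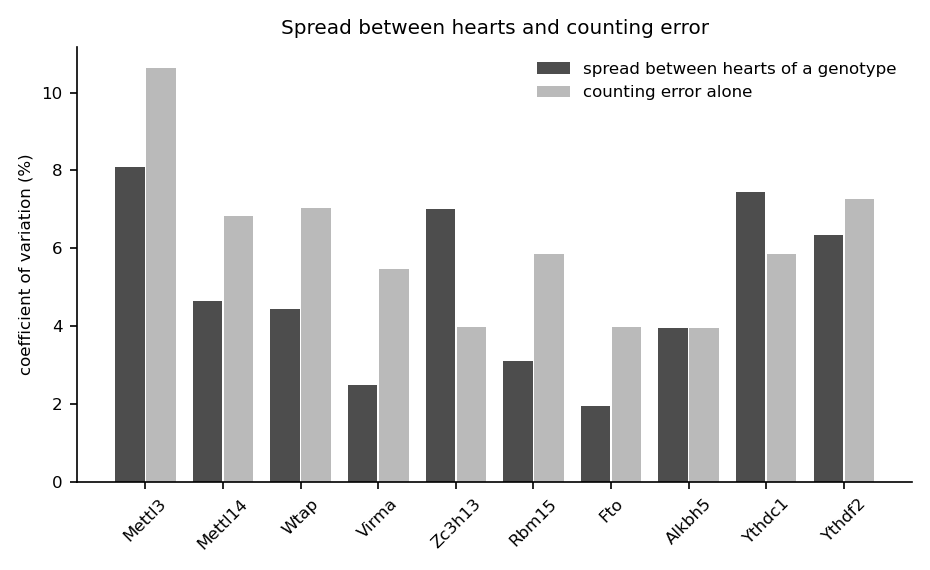
Coefficient of variation in percent (y axis, from 0) for each member, as the spread between hearts of the same genotype (dark, 3 KO and 3 WT pooled) and as counting error alone (light). Spread exceeds counting error for *Zc3h13* (7.01 against 3.96%) and *Ythdc1* (7.45 against 5.85%).

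Levels of different genes were compared per kilobase, first over the union of annotated exons. *Alkbh5* had the highest level, 108 ± 4.50 normalised reads per kb (SD, n = 6), and *Zc3h13* followed with 102 ± 6.52. These neighbours were not separated, with *Alkbh5* above *Zc3h13* in 4 of 6 hearts. *Fto* had 48.8 ± 1.09 and *Virma* 47.2 ± 1.23, with *Fto* above in 5 of 6 hearts. *Ythdf2* (41.7 ± 2.68) and *Rbm15* (39.3 ± 1.87) came next and were likewise in that order in only 4 of 6 hearts. *Wtap* reached 32.2 ± 1.29, *Mettl14* 29.2 ± 1.89, *Ythdc1* 21.4 ± 1.43 and *Mettl3* 17.6 ± 1.77. *Wtap* was above *Mettl14* in 5 of 6 hearts, and *Ythdc1* above *Mettl3* in 5 of 6, WT replicate 1 being the exception in both. The catalytic subunit had the lowest mean of the order, at 16.5 ± 1.27 in KO and 18.7 ± 1.56 in WT hearts (SD, n = 3). The ratio of the highest to the lowest member was 6.16 ± 0.369 (SD, n = 6).

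The order of levels depended on the length used. The union of exons measured 13.7 kb for *Ythdc1* against 3.27 kb for its longest coding transcript, 13.0 against 4.71 kb for *Fto*, and 5.08 against 2.02 kb for *Mettl3*. Over the longest coding transcript, *Fto* was highest with 135 ± 3.01 and *Ythdc1* took rank 4 with 89.4 ± 5.96, while *Mettl3* (44.1 ± 4.42) and *Mettl14* (30.1 ± 1.95) held the last 2 ranks. No member kept the same rank under both lengths. *Mettl3* and *Mettl14* were among the lowest 3 and *Alkbh5*, *Zc3h13* and *Fto* were the highest 3 by either length. A count per gene does not tell which transcript the reads came from.

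**Figure D5:**
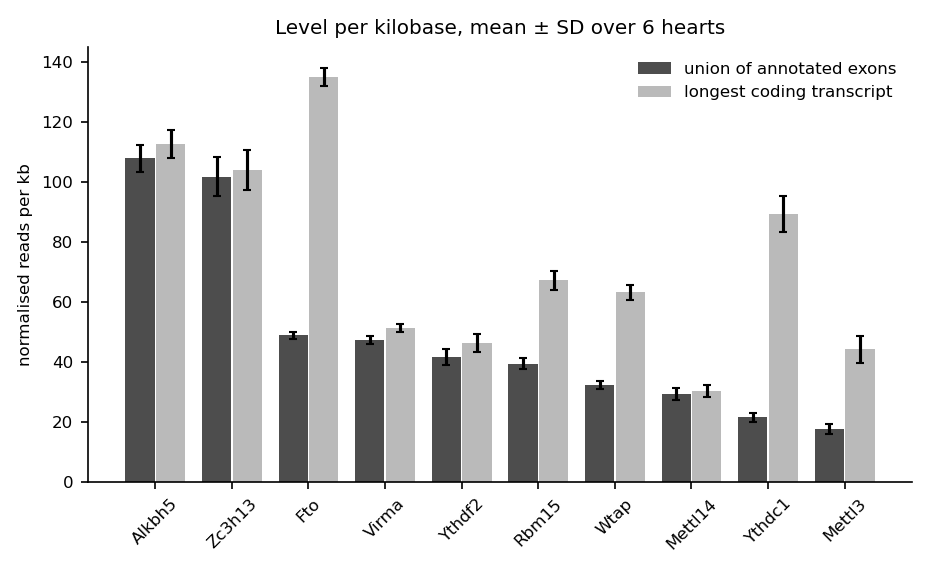
Normalised reads per kb (y axis, from 0) of the 10 members, as mean ± SD over all 6 hearts, divided by the union of annotated exons (dark) or by the longest coding transcript (light). *Fto* and *Ythdc1* differ most between the lengths, with 48.8 against 135 and 21.4 against 89.4.

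Ratios between members of one complex or role were taken within each heart, where the size factor of the library drops out. *Mettl14* per *Mettl3*, per kb over the union of exons, was 1.64, 1.66 and 1.79 in KO and 1.55, 1.61 and 1.75 in WT hearts, so the proportion of the core pair overlapped between genotypes. *Wtap* per *Mettl3* was 1.86, 2.06 and 2.00 in KO and 1.48, 1.79 and 1.91 in WT hearts. The KO mean was 1.97 ± 0.102 and the WT mean 1.73 ± 0.223 (SD, n = 3 each), and a single pair of hearts, KO replicate 1 and WT replicate 3, made the groups overlap. *Fto* per *Alkbh5* was the tightest ratio, between 0.438 and 0.474 in all 6 hearts. *Ythdc1* per *Ythdf2* ranged from 0.454 to 0.613, with both genotypes mixed. The level of each ratio rests on the length used. Over the longest coding transcript, *Mettl14* per *Mettl3* averaged 0.685 over 6 hearts, against 1.67 over the union. *Fto* per *Alkbh5* averaged 1.20 against 0.452, and *Ythdc1* per *Ythdf2* 1.95 against 0.516. *Wtap* per *Mettl3* averaged 1.44 against 1.85. These ratios are given as values with no test.

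Other genes of the pathway were looked at in 4 lists. Of 8 other writer genes, all were tested and 6 were above 0 in KO, with 2 at an unadjusted p under 0.05 and 0 past an adjusted p of 0.05 (limma). Over the 4 lists these 2 were the only ones of 35 genes tested at that unadjusted p, against 5.74% of all genes tested, which is the background share. *Rbm15b*, the paralog of *Rbm15* with the same adaptor role, had 184, 195 and 173 normalised reads in KO and 148, 146 and 155 in WT hearts, so that every KO heart lay above every WT heart. The means were 184 ± 11 and 150 ± 4.73 (SD, n = 3 each), a ratio of 1.23. The change was 0.29 on the log2 scale (SE 0.09, unadjusted p 0.00472, adjusted p 0.762, limma), and the unadjusted p stayed under 0.05 in all 15 alternatives. *Rbm15* and *Rbm15b* were thus both without overlap and both higher in KO, and neither passed over all genes. *Pcif1*, which methylates the adenosine next to the cap, had 175, 149 and 157 in KO and 130, 156 and 119 in WT hearts, an overlap through WT replicate 2. The change was 0.25 on the log2 scale (SE 0.11, unadjusted p 0.0352, adjusted p 0.851, limma), and with 1 library omitted the unadjusted p was under 0.05 in 2 of 6 fits. *Mettl16*, which methylates U6 RNA and *Mat2a*, was lowest in this list at -0.12 (SE 0.09). Its value was -0.042 without KO replicate 2 and -0.19 without KO replicate 3.

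Of 13 other reader genes, 11 were tested, 3 above and 8 below 0, with 0 at an unadjusted p under 0.05 (limma). *Fmr1* was highest at 0.049 (SE 0.075) and *Igf2bp2* lowest at -0.22 (SE 0.18), with 44, 44 and 42 normalised reads in KO and 52, 41 and 61 in WT hearts. The value of *Igf2bp2* was -0.37 without WT replicate 2 and -0.090 without WT replicate 3. *Igf2bp3* was under the filter with values of 1 to 3, and *Igf2bp1* was not analysed here. All 11 genes of decay, splicing, export and 3′ end formation that act with the readers were tested, 9 above and 2 below 0, again with 0 at an unadjusted p under 0.05. *Cnot7*, a deadenylase subunit of the complex that YTHDF2 recruits, had 404, 376 and 394 in KO and 409, 415 and 428 in WT hearts and did not overlap, except under total scaling, differing by -0.093 on the log2 scale (SE 0.067). The export receptor gene *Nxf1* did not overlap either, with 346, 380 and 349 in KO and 333, 344 and 331 in WT hearts (0.091, SE 0.071). *Pabpn1*, a nuclear poly(A)-binding protein, had the highest log2 fold change of this list at 0.23 (SE 0.14), with overlapping groups. Of 6 genes of the methyl donor S-adenosylmethionine, 5 were tested, with 0 at an unadjusted p under 0.05. *Mat2b*, the regulatory subunit of the synthetase, was without overlap at 284, 261 and 270 in KO and 258, 251 and 256 in WT hearts (log2 fold change 0.090, SE 0.076). *Ahcy*, which clears the product of methylation, was lowest in its list at -0.062 (SE 0.27), and *Mat1a* was not analysed here. Over the 4 lists the medians of the log2 fold change were 0.12, -0.027, 0.070 and -0.0060, and 4 of 35 genes tested were without overlap, against 9.07% of all genes.

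Markers of heart cell types were read beside these values. The cardiomyocyte markers were all present and all 8 were below 0 in KO, 5 of them at an unadjusted p under 0.05 (limma), against 5.74% of all genes tested, and 0 past an adjusted p of 0.05. Their sum was 20011, 20861 and 21350 in KO replicates 1, 2 and 3. It was 25554, 23032 and 20846 in WT replicates 1, 2 and 3. Estimated reads in the same order were 3.62, 3.31 and 3.15 M in KO and 2.59, 3.04 and 3.46 M in WT. Libraries with more estimated reads had lower sums throughout, and the part of depth in these values was not tested. WT replicate 1 was the highest library for 7 of the 8 genes, and the sum of WT replicate 3 lay within the KO range. All 8 stayed below 0 with any library omitted, but the 5 became 2, 0 or 8 on omitting WT replicate 1, 2 or 3, and 1 on omitting either KO replicate 1 or 2. Their number was 1 with cyclic loess or with no trend, and 3 with total scaling or the replicate block. Skeletal muscle markers summed to at most 14 in any heart, and 2 of 6 were not analysed here. Immediate early genes summed to 537 to 569 in KO and 417 to 490 in WT hearts, with *Jun* and *Fos* at an unadjusted p under 0.05 (limma). Of the 6 tested, 4 were above and 2 below 0 in KO. *Jun*, with means of 334 in KO and 268 in WT hearts, held most of the difference in the sums. Sums of atrial, fibroblast, endothelial, macrophage, smooth muscle, blood and fat markers overlapped between the genotypes, with 1 macrophage gene, *C1qb*, and 0 of the others at an unadjusted p under 0.05. Of these lists only the endothelial and blood markers were refitted under the alternatives. The 0 did not hold for the blood markers without WT replicate 2, where 3 of 5 were under 0.05, nor without KO replicate 1 or with the replicate block, where 1 was, and 1 endothelial marker was under 0.05 without KO replicate 1. All 6 endothelial markers had fitted values above 0 in KO and all 5 blood markers below 0. With 1 library omitted, 4 to 6 of the endothelial markers were above 0, and 2 to 5 of the blood markers were below 0, the 2 being without WT replicate 1 and 3 being without KO replicate 2. The part of these markers in the members' values was not tested.

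Sequence and position gave a description of what the members share. They lie on 7 chromosomes and are all protein coding. The motif GGAC, the core of the common m6A consensus, was counted on the RNA strand of the longest coding transcript. It occurred 14 times in *Mettl3* (6.91 per kb) and 27 times in *Rbm15* (6.22 per kb), against 10 times in *Fto* (2.12 per kb) and 19 times in *Mettl14* (2.64 per kb). The members' median was 4.48 per kb, and that of 11949 tested coding genes was 4.09 per kb, of which 99.7% held the motif at least 1 time. Promoter windows of 300 bases were found in RefSeq (GRCm38.p6) for 8 of the 10 members. Where a gene had several windows the first one listed was taken. These held 17 to 35 CG dinucleotides, with a median of 23.5 against 21 for 9659 tested genes, while the windows not taken held 25 in *Zc3h13* and 34 and 48 in *Wtap*. TATAAA, read on both strands, was in 0 of the 8 and in 7.13% of the windows of all tested genes, and CCAAT in 3 of the 8 and in 38.4%. These matches are letters in a window and were not tied to any difference between KO and WT.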

How the data were processed

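Upstream steps were those of the authors. Single-end reads went through Trimmomatic 0.39 and were placed on GRCm38 (mm10) by STAR 2.6.1d. Mitochondrial and ribosomal reads, reads with several positions and duplicates (Picard 2.21.1) were dropped. featureCounts 1.6.5 then gave a strand-specific exonic count per gene, in which a read shared between genes was not counted. The deposited score per gene and library is this count divided by a DESeq2 1.18.1 size factor and rounded, so a test on raw counts could not be run. Reads of close paralogs, such as *Ythdf2* and its relatives, can be under-counted. Same-strand exons of other genes cover 4.62% of the exonic length of *Ythdc1* and 0% of that of the other members. The 3 KO and 3 WT libraries were grouped by title. Nothing states litters or pairs, and p-values measure the spread between these samples.

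Values were taken as log2(value + 1). The 13753 genes with a mean of at least 10 were tested in R 4.3.3 with limma 3.58.1 (mean-variance trend, no covariate, two-sided, Benjamini-Hochberg over all genes tested, threshold 0.05), and 8023 genes were not tested. The test was checked on simulated data whose changes were larger than any fitted for the members. Intervals are 95% limma intervals for each gene. Size factors, and from them read numbers, were estimated from the regular gaps and repeats that rounding leaves among the values. Between replicates of a group, 3.04 to 3.45% of tested genes had identical values, so no library was taken for a copy of another. Exonic lengths came from GENCODE M21. *Trdn-as* was found by position.

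The members and lists were chosen with earlier results of these data known. Named genes are the members, *Trdn-as*, *Trdn*, and in the 4 related lists each gene with an unadjusted p under 0.05 or without overlap and the gene with the highest and lowest fold change. *Jun*, *Fos* and *C1qb* were named after their values were seen. Alternatives were a pseudocount of 0.1, 2 other filters, total scaling, median of ratios, cyclic loess, limma-voom, no trend, a replicate block, each library left out, and the longest coding transcript as length. This length for the ratios, and all settings for the cardiomyocyte, endothelial and blood markers, were chosen after seeing the data.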

Additional observations from a re-analysis of the deposited data

How the results depend on the processing

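The count of members past an adjusted p of 0.05 and the count at an unadjusted p under 0.05 were 0 in all 15 alternatives (limma), and the adjusted p of any member was at least 0.676. Members without overlap numbered 2 under total scaling, *Rbm15* and *Virma*, where 10.5% of all genes did not overlap, and 1 to 4 when 1 library was left out, with 4 without KO replicate 1, where 22.6% of all genes did not overlap since 2 hearts were set against 3. They numbered 2 when KO replicate 2 or WT replicate 1 or 3 was left out (18.4, 16.6 and 23% of all genes), and 3 when WT replicate 2 was (17.3%). *Rbm15* was among them each time. Over all genes, 2 passed with at least 10 in every sample, where *Trdn-as* fell under the filter, and 1 without the trend, where *Trdn* had an adjusted p of 0.145 (limma). With 1 library left out the number ran from 2 to 32, being 32 when KO replicate 1 and 7 when WT replicate 3 was left out, and it was 2 when either KO replicate 2 or WT replicate 1 was omitted. Related genes at an unadjusted p under 0.05 numbered 1 without the trend and 1 to 2 with 1 library left out, with *Rbm15b* always among them, *Pcif1* lost when KO replicate 1 or 3 or WT replicate 1 or 3 was omitted, and *Pabpn1* added without WT replicate 1. What caused these shifts was not tested.

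Of 300 log2 fold changes of the 20 named m6A genes under the alternatives, 289 kept their sign and 11 turned, all 11 with a library left out. In those fits *Wtap* ran from -0.026 to 0.046, *Zc3h13* from -0.020 to 0.10, *Ythdc1* from -0.033 to 0.073, *Fmr1* from -0.0040 to 0.097 and *Ahcy* from -0.22 to 0.10. Other genes kept their sign but changed in size over the 15 alternatives. *Mettl3* ran from -0.24 to -0.11, *Virma* from 0.015 to 0.059, *Fto* from -0.049 to -0.013 and *Alkbh5* from -0.091 to -0.027. *Pcif1* ran from 0.17 to 0.36, *Nxf1* from 0.049 to 0.12, *Pabpn1* from 0.11 to 0.34 and *Mat2b* from 0.058 to 0.12. By the longest coding transcript the highest to lowest level was 4.50, and the mean ratios over 6 hearts were 0.685 for *Mettl14* per *Mettl3* against 1.67, 1.44 for *Wtap* per *Mettl3* against 1.85, 1.20 for *Fto* per *Alkbh5* against 0.452, and 1.95 for *Ythdc1* per *Ythdf2* against 0.516, since another length rescales them. Hearts sharing a replicate number were not paired, since their deviations from the group means correlated across genes at 0.048, -0.068 and -0.028. With the replicate block 4 genes passed over all genes and 0 members passed. Among the 10 members *Mettl3* had the fewest reads, an estimated 79.4 to 105 per library, and a counting error of 10.6%.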
